A study of Homo sapiens with 4 samples.

Results

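Box H/ACA small nucleolar RNAs and small Cajal body RNAs are the guide RNAs described here. They were measured in 2 lines labelled MDA-MB-231, a breast cancer cell line without hormone receptors or HER2 amplification. In a check of the labels, 1 of these 2 groups did not match that line. The members are all rows of the authors' deposited table with the gene type snoRNA and a name beginning with SNORA or SCARNA, 192 of 34675 genes, of which 167 are SNORA and 25 SCARNA rows. A stable line with pcDNA-FLAG-LKB1 wildtype, a plasmid for the tagged tumour suppressor kinase that STK11 encodes (2 libraries), was set against a stable line with the empty pcDNA vector (2 libraries). Both lines grew on plastic in DMEM with 10% serum, and total RNA went into stranded whole-transcriptome libraries. The labels give 1 line of each kind and leave out whether its 2 libraries came from separate cultures. The p-values therefore cover the spread between these libraries alone, and that spread may be technical. The promoter that drives the LKB1 plasmid is not named.

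A box H/ACA RNA folds into a pair of hairpins, joined by a hinge with the H box (ANANNA) and followed by a tail with the trinucleotide ACA. It sits in a particle with dyskerin (DKC1), NHP2, NOP10 and GAR1 and guides the change of chosen uridines to pseudouridine, in ribosomal RNA for the nucleolar kind. Cajal body RNAs guide modification of the spliceosomal RNAs. They include H/ACA guides, C/D guides and RNAs with both parts, and many H/ACA ones carry a CAB box that holds them in the Cajal body. In human cells most of these RNAs are cut from introns of host genes, many of which encode ribosomal proteins or translation factors, and the telomerase RNA TERC ends in an H/ACA part of its own.

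The sequences below were chosen because the results turn on them: 3 of the 4 members that passed the test, the near-identical pair SNORA7A and SNORA7B, and a Cajal body RNA that makes up most of the reads of its host. They are GENCODE 29 transcripts, matched by Ensembl identifier, 5′ to 3′, on GRCh38. Capitals mark the H box ANANNA nearest the middle, where the centre of one lies between 40 and 60% of the length, and the last ACA in the final 8 bases. SNORA54 is at chr11:2963771-2963893 (minus strand), SNORA49 at chr12:132031224-132031359 (plus) and SNORA74B at chr5:173020728-173020928 (plus). SNORA7A is at chr3:12840312-12840450, SNORA7B at chr3:129397210-129397348 and SCARNA13 at chr14:95533355-95533629, all on the minus strand.
SNORA54: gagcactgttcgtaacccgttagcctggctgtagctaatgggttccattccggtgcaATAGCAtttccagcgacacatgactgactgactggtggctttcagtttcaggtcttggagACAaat
SNORA49: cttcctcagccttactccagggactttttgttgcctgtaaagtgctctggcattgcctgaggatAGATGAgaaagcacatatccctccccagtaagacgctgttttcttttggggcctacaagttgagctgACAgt
SNORA74B: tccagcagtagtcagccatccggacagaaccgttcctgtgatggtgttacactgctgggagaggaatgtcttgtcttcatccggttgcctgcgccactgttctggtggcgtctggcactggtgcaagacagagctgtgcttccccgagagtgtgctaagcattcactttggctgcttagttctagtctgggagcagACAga
SNORA7A: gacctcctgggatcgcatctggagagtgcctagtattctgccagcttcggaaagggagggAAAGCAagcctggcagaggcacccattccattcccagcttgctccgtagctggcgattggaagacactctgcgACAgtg
SNORA7B: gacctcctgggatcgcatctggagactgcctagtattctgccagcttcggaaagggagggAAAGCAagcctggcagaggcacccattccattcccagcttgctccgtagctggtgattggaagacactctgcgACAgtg
SCARNA13: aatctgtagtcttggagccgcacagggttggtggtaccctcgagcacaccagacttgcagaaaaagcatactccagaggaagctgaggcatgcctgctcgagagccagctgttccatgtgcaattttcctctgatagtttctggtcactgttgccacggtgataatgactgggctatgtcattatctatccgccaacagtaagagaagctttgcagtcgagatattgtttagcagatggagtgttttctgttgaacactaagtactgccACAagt

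The H box of SNORA54 starts at base 58 of 123 and that of SNORA49 at base 65 of 136, and no ANANNA lay in that central stretch of the longer SNORA74B. SNORA7A and SNORA7B were identical at 98.6% of aligned bases. Of the 192 members 165 were found in GENCODE 29, 163 of them with the length that the table gives. Among these the SNORA rows (143) carried ACA exactly 3 bases before the end in 72.7%, ACA anywhere in the last 8 bases in 86%, ANANNA in the central stretch in 84.6%, and the exact ACA together with ANANNA in 64.3%. Box C/D RNAs (186 SNORD rows), which use other motifs, had 2.15%, 6.99%, 30.6% and 0% for the same searches on the sense strand. TGAG, letters that a CAB box can have, was present in 65% of the 20 SCARNA rows, 42.7% of the SNORA rows and 80.1% of the SNORD rows, so these letters did not set the Cajal body RNAs apart.

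The values come from 1 table of the authors' own comparison, which gives a fold and its p-values per gene and no value per library. Its header does not name the direction, which was read as LKB1 over vector because STK11 lay above 1 (deposited fold 1.54, log2 0.62, adjusted p = 0.00105, with 2112 reads in the LKB1 line and 1321 in the vector line). Reads per line, each a sum over 2 libraries, were recovered from the prior count that the fold carries, for 99.5% of the 28242 genes with reads. Sequencing of the LKB1 line was deeper than that of the vector line by a factor of 1.04. They show no spread between libraries, and intervals on their ratios cover counting error only. Among all genes deposited, 5.79% were called (adjusted p under 0.05), with 2.55% higher and 3.24% lower in the LKB1 line. The 2 lines differed in more than STK11. When labels were checked for sample mix-ups, 1 of the 2 groups failed to match MDA-MB-231. The LKB1 titles carry the term fmRNA and the vector titles mRNA, and 1 LKB1 library carries another tag than the other 3. The labels do not explain these terms. The first cannot be told apart from the line, and the part of the second was not tested. Endothelial markers (8) summed to 626 reads in the LKB1 line and 2296 in the vector line, with 7 of them called lower and 1 above 0. Of 7 fibroblast markers 3 were called lower (577 reads against 824, with DCN at 0 in both). Of the 5 fibroblast markers with at least 40 reads 1 was above 0, not called. Of 3 genes looked for as markers of this line 2 were above 0 and none was called. The reads of 2 of these were not resolved, and KRT18, a keratin gene, had 4938 reads in the LKB1 line and 4333 in the vector line. Of 3 genes looked for as low or absent, 1 had at least 40 reads (deposited log2 fold -0.69, not called). Of the receptors that triple-negative cells lack, ESR1 had 12 and 8 reads and PGR 0 and 4. The part of these differences in the results was not tested.

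Few H/ACA and Cajal body RNAs passed the test. Of the 192 members 4 rose in the LKB1 line in the deposited table and none fell, which is 3.51% of the 114 members with at least 40 reads, where 5.77% of all genes with as many reads were called higher and 6.86% lower. By unadjusted p under 0.05 there were 10 members higher and 0 lower, where 5.62% of all genes were higher and 6.83% lower. SNORA54, SNORA74B, SNORA72 and SNORA49 were the 4, with deposited folds of 1.72, 1.86, 2.07 and 1.49. All 25 SCARNA rows stayed outside the calls. At 40 reads or more, 80 of the 114 members (70.2%) were above 0 on the deposited log2 scale, with a median of 0.16, against 48% and a median of -0.02 for all genes with as many reads. With a variation between libraries of 0.1 assumed for every gene, a negative binomial test of the summed reads called 6 members, all higher, and 7.18% of all genes. It called 0 members with 0.2 (2.67% of all genes) and 0 with 0.4 (0.81%), so the 4 calls depend on a spread that the table does not show.

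Detection was uneven. No read was listed for 27 members (26 SNORA and 1 SCARNA), 51 had 1 to 39 reads and 114 had at least 40, of which 84 had at least 200 and 46 at least 1000. Those with 1 to 39 reads summed to 250 reads in the LKB1 line and 204 in the vector line, with 8 seen only in the LKB1 line and 14 only in the vector line. Many rows share a name, although their sequences can differ widely, since 37 names stand on several rows and cover 100 members. In 27 of the 36 such names with resolved reads, 1 row held over 90% of them. SNORA72 is such a case, with all 186 reads on the chromosome 8 row and none on the copies on chromosomes 1 and 3. Over all names on several rows, 49 other copies were compared with the row of their name that had the most reads. They matched it at 42.1 to 98.5% of aligned bases (median 78.6%). How the authors placed reads that match several copies is not given in the sources used here.

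SNORA54 (ENSG00000207008.1, chromosome 11, 2985001 to 2985123, minus strand, hg19) guides pseudouridylation and lies in an intron of NAP1L4, a gene of a nucleosome assembly protein. It had 1022 reads in the LKB1 line and 573 in the vector line. Its deposited log2 fold was 0.78 (adjusted p = 0.00178), and the counting interval of the ratio was 1.55 to 1.9. NAP1L4 without the small RNA reads inside it had 1607 reads in the LKB1 line and 1550 in the vector line, a log2 ratio of -0.00.

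SNORA74B (ENSG00000212402.1, chromosome 5, 172447731 to 172447931, plus strand, hg19), a form of the RNA known as U19, lies in an intron of ATP6V0E1, which encodes a subunit of the vacuolar proton pump. It had 126 reads in the LKB1 line and 65 in the vector line, a deposited log2 fold of 0.90 (adjusted p = 0.0264). Its host was itself called higher (deposited log2 fold 0.56, adjusted p = 0.0224), and without the small RNA it had 1608 reads in the LKB1 line and 1067 in the vector line, a log2 ratio of 0.54. Here RNA and host rose together.

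SNORA72 (ENSG00000207067.1, chromosome 8, 99054314 to 99054445, minus strand, hg19) lies in an intron of the ribosomal protein gene RPL30. It had 127 reads in the LKB1 line and 59 in the vector line, a deposited log2 fold of 1.05 (adjusted p = 0.0333). This was the only called member with a fold of at least 2. RPL30 was not called (deposited log2 fold 0.33, adjusted p = 0.317), and its log2 ratio without the small RNA was 0.31.

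SNORA49 (ENSG00000208892.1, chromosome 12, 132515769 to 132515904, plus strand, hg19) lies in an intron of EP400, which encodes a chromatin remodelling ATPase. It had 398 reads in the LKB1 line and 256 in the vector line. With a deposited log2 fold of 0.58 and an adjusted p of 0.0448 it was the member just inside the threshold. EP400 without the small RNA had 1429 reads in the LKB1 line and 1434 in the vector line, a log2 ratio of -0.06. Just outside the threshold stood SNORA77 on chromosome 1 (deposited adjusted p = 0.164), which rests on 10 reads in the LKB1 line and 1 in the vector line, a ratio of 9.62 with wide counting error.

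**Figure D1:**
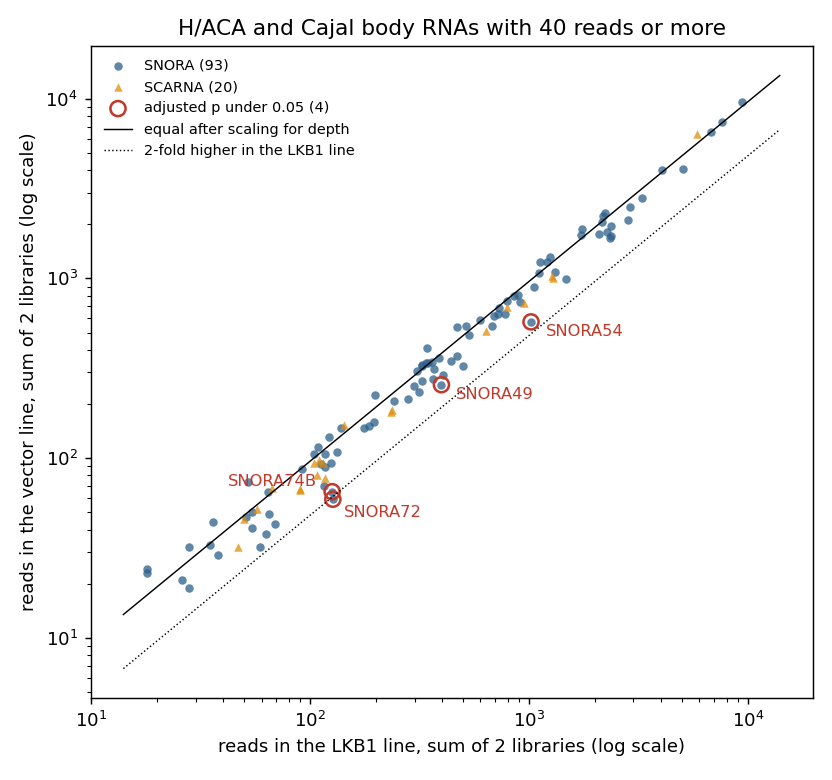
Reads per member in the LKB1 line (x axis) and the vector line (y axis), both sums of 2 libraries on log scales, for the 113 members with at least 40 reads whose totals were resolved. Points lie close to the line of equal depth-scaled reads over the whole range, the 4 called members (red rings) lie below it, and SNORA72 alone of them reaches the dotted line of a 2-fold excess in the LKB1 line.

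The most abundant members had folds near 1. SNORA48 on chromosome 17 had at least 10387 reads in the vector line, beyond the totals that could be resolved, and a deposited log2 fold of 0.12 (adjusted p = 1). SNORA73B and SNORA73A, the U17 RNAs that act in cleavage of the ribosomal precursor, had 9420 and 7635 reads in the LKB1 line and 9563 and 7407 in the vector line. Their deposited log2 folds were -0.08 and -0.01. SNORA62, also known as E2, had 6778 reads in the LKB1 line and 6531 in the vector line (deposited log2 fold -0.00). SCARNA2, a C/D guide of U2 RNA, had 5846 reads in the LKB1 line and 6395 in the vector line, a deposited log2 fold of -0.19. Per length, SNORA48 stood first by its bound, and among members with resolved totals the order at the top was SNORA73B with 4618 reads per 100 bases in the LKB1 line and 4688 in the vector line, then SNORA62 with 4430 and 4269, with SCARNA2 at 1392 and 1523.

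Next by reads came members with a small excess in the LKB1 line. SNORA8 had 5048 reads in the LKB1 line and 4081 in the vector line, SNORA24 on chromosome 4 had 3296 and 2797, SNORA7A 2896 and 2486, and SNORA17 2835 and 2108. Their deposited log2 folds were 0.25, 0.18, 0.16 and 0.37, none of them called. SNORA44 in SNHG12 had 4078 reads in the LKB1 line and 3997 in the vector line (deposited log2 fold -0.03). SNORA7B, whose sequence differs from SNORA7A at few bases, had 337 reads in each line, and which of the pair a shared read was given to is uncertain.

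Outside the calls, the largest rises by value among members with at least 40 reads were those of SNORA27 in RPL21, with 59 reads in the LKB1 line and 32 in the vector line (deposited log2 fold 0.82, adjusted p = 0.394), and SNORA71B, with 116 and 70 (0.67, adjusted p = 0.233). At the other end, 3 of the 5 lowest values belonged to rows of the SNORA11 family. SNORA11 on chromosome X had 52 reads in the LKB1 line and 74 in the vector line (deposited log2 fold -0.56, adjusted p = 0.671). SNORA11 on chromosome 10 had 36 and 44 reads and SNORA11B 18 and 24, with deposited log2 folds of -0.34 and -0.47. None of the 3 was called. The X-linked row lies in MAGED2, a melanoma antigen family gene that fell (deposited log2 fold -0.76, adjusted p = 0.000523). The 41 reads of SNORA79 in GTF2A1 split into 18 in the LKB1 line and 23 in the vector line, a deposited log2 fold of -0.40. The other row named SNORA79, in CCNB1IP1, had 532 reads in the LKB1 line and 484 in the vector line (0.08).

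Most Cajal body RNAs lay slightly above 0 without passing the test. Of the 20 SCARNA rows with at least 40 reads 17 were above 0, with a median deposited log2 fold of 0.27 and a range of -0.19 to 0.55, and 0 had an unadjusted p under 0.05. By counting error alone the interval of the ratio lay above 1 for 7 of them, below 1 for 1 (SCARNA2) and over 1 for 12. SCARNA13, an H/ACA guide also known as U93, had 1290 reads in the LKB1 line and 1001 in the vector line (deposited log2 fold 0.31, adjusted p = 0.541). SCARNA10, the U85 RNA that guides modification of U5 RNA, had 797 and 697 reads (0.14), SCARNA7 had 1276 and 1030 (0.25), SCARNA16 had 951 and 732 (0.32) and SCARNA12 had 639 and 507 (0.28). SCARNA3 had the largest value, with 117 reads in the LKB1 line and 77 in the vector line (0.55, adjusted p = 0.458).

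Of the rarer Cajal body RNAs, SCARNA6 had 234 reads in the LKB1 line and 180 in the vector line, SCARNA1 47 and 32, SCARNA20 90 and 66, SCARNA4 115 and 94, SCARNA21 on chromosome 17 110 and 98, and SCARNA5 104 and 94. The rows named SCARNA18 had 108 and 80 reads on chromosome 18 and 90 and 67 on chromosome 5, and shared 42.1% of aligned bases. SCARNA17 had 57 reads in the LKB1 line and 52 in the vector line, and SCARNA14 50 and 46. SCARNA11 had 143 and 152 reads and SCARNA8 67 and 68, the other two below 0 besides SCARNA2. The row named SCARNA23 on chromosome 4, in WHSC1, had 237 and 185 reads, exactly those of a sense intronic row named SCARNA22 that spans it. Summed SCARNA reads, to which SCARNA2 gives 12241 over both lines, were 12387 in the LKB1 line and 11664 in the vector line, a depth-scaled ratio of 1.02.

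**Figure D2:**
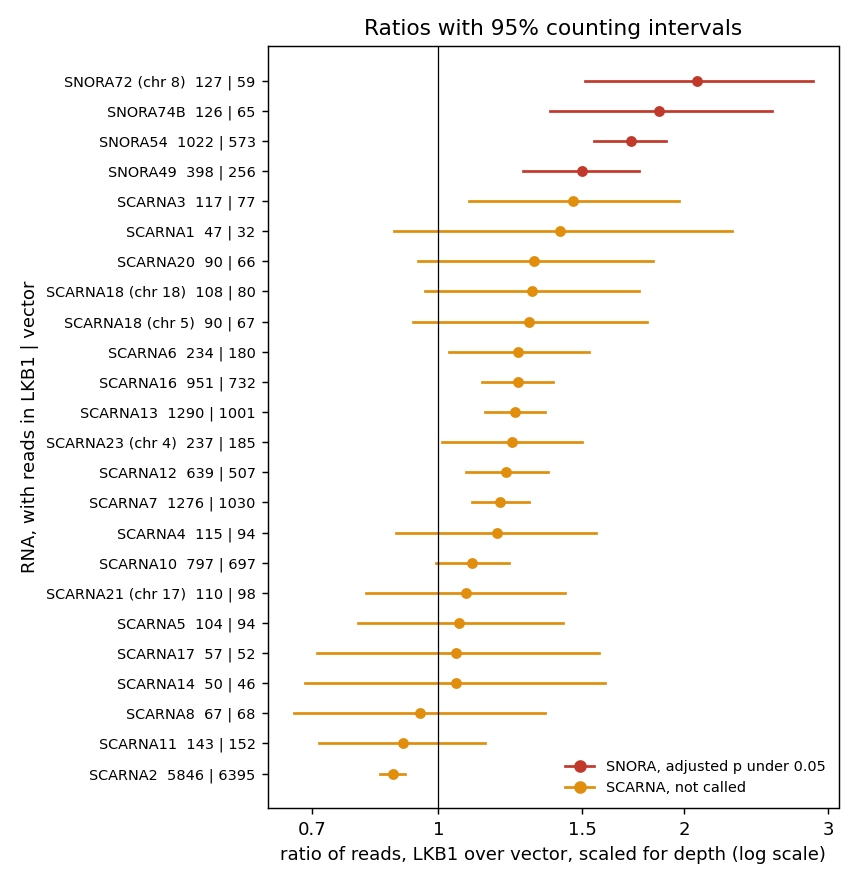
Depth-scaled ratio of reads, LKB1 over vector (log scale), with 95% exact counting intervals, for the 4 called SNORA members (red) and the 20 SCARNA rows with at least 40 reads (orange), with the reads of each line beside the name. The called members run from 1.5 to 2.07, the Cajal body RNAs from 0.879 to 1.46, with 17 of 20 to the right of 1.

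Box C/D and spliceosomal RNAs also lay mostly above 0, whereas microRNA genes were spread to both sides. At 40 reads or more the median deposited log2 fold was 0.12 for SNORA rows and 0.23 for SNORD rows, of which 102 of 130 lay above 0, 11 rose and 1 fell. Spliceosomal RNAs (RNU) had a median of 0.20, with 13 of 18 above 0. This class was set by the gene type snRNA and a name beginning with RNU. It includes rows with pseudogene names, such as RNU1-11P and RNU2-3P. MicroRNA genes had a median of 0.12 with 31 of 61 above 0, and 17 (27.9%) were called higher and 4 (6.56%) lower. At 200 reads or more they had a median of -0.17 with 7 of 22 above 0. Protein-coding genes had a median of -0.02, with 47.1% above 0. Summed over the rows with resolved reads, the members had 104989 reads in the LKB1 line and 95510 in the vector line, a depth-scaled ratio of 1.06, and SNORD rows 187539 and 161636, a ratio of 1.12. The median of the members lay under that of the SNORD rows. On a scale centred on the SNORD median, which takes 0.23 from every gene, it was therefore -0.06, with 47 of 114 members above 0.

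**Figure D3:**
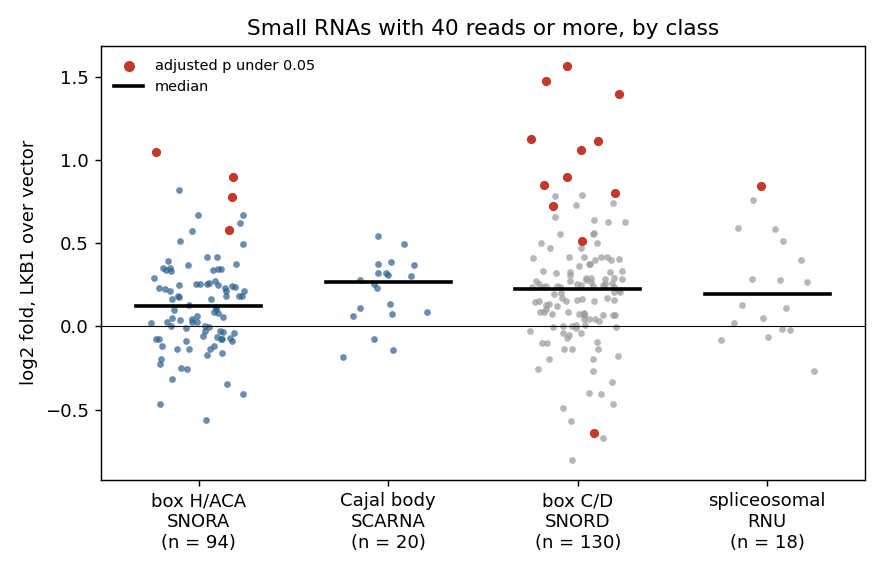
Deposited log2 fold, LKB1 over vector, of each small RNA with at least 40 reads (points), by class, with the class median (bar) and called RNAs in red. The medians are 0.12 for SNORA, 0.27 for SCARNA, 0.23 for SNORD and 0.20 for RNU, and every called SNORA row lies above 0.

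Base composition and size were set beside the fold. Across the 93 members with at least 40 reads and a GENCODE sequence of the same length, Pearson's r of the log2 fold was -0.18 with GC content and -0.01 with length. Points in this description share libraries and often a host. The 54 members in introns of GENCODE 29 transcripts had a median log2 fold of 0.11, and the 33 in or over an exon of some transcript had 0.24.

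Host genes were compared with the RNAs they carry. Of the 114 members with at least 40 reads 108 lay on the same strand inside a longer gene of the table, 88 of them in protein-coding genes, 18 in ribosomal protein genes and 8 in SNHG genes or GAS5, long RNAs known mainly as hosts. In the deposited values 74 of these 108 (68.5%) were on the same side of 0 as their host, with a Pearson's r of 0.54 across members. The host totals, however, can hold the reads of the small RNAs. None of 113 hosts with resolved totals had fewer reads than the small RNA rows inside it. The median share of a member was 15.1%, so most hosts could meet this under either way of counting. Whether all host totals hold these reads is not known. In some hosts the small RNA was nearly everything. METTL12 had 2437 reads in the LKB1 line and 2045 in the vector line, of which SNORA57 had 2373 and 1950, or 96.5%. SCARNA13 made up 96.8% of the reads of SNHG10, and 9 of 94 members held over 50% of their host.

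With the reads of all small RNAs taken out of the host, a step added once the data had been seen, the share on the same side was 49 of 94 (52.1%), against 64 of the same 94 (68.1%) with deposited hosts, and Pearson's r was 0.31. The median log2 ratio of these hosts was then -0.10, beside 0.16 for their members, and 76 of 94 members lay above their host. Among members with at least 200 reads, the same step left 34 of 69 (49.3%) on the side of their host, with a Pearson's r of 0.12. What was left of the SNHG hosts was lower in the LKB1 line by value. SNHG12 without its small RNAs had 211 reads in the LKB1 line and 249 in the vector line (log2 ratio -0.29), SNHG7 had 363 and 411 (-0.24) and SNHG15 112 and 188 (-0.80). Their members had higher values than these remainders, for example SNORA17 in SNHG7 at 0.37 and SNORA9 in SNHG15 at 0.27. No test was made on these remainders, whose spread between libraries is unknown. Where a host total did not hold the small RNA reads, taking them out would itself shift its ratio.

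**Figure D4:**
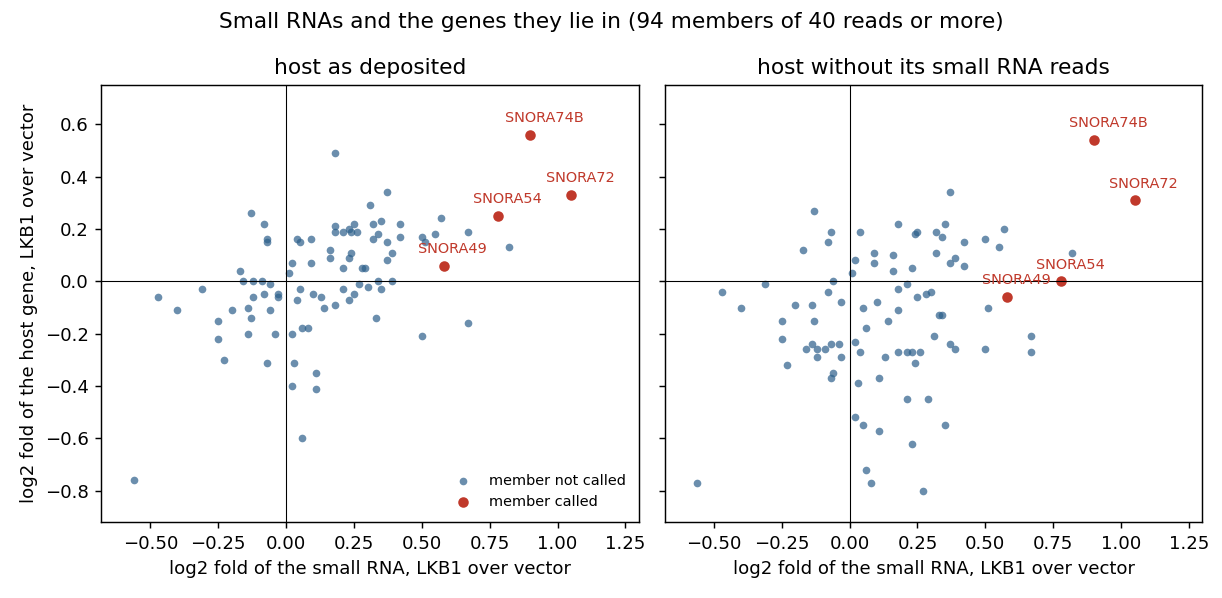
Log2 fold of the small RNA (x axis) against that of its host gene (y axis), LKB1 over vector, for 94 members with at least 40 reads, with the host as deposited (left) and with the reads of all small RNAs inside it taken out (right). Red points are the called members. On the left 64 of 94 points lie on the same side of 0 on both axes, on the right 49.

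Values were also set side by side for members that share a host, none of which was called in the hosts named here. TAF1D, which encodes a subunit of the RNA polymerase I factor SL1, carries 6 members with at least 40 reads, all above 0. SNORA8, SNORA1, SNORA32 and SNORA18 had deposited log2 folds of 0.25, 0.23, 0.25 and 0.25, SNORA25 had 0.34 and SNORA40 0.62, beside 0.28 for TAF1D as deposited. In EIF4A2, an RNA helicase gene of translation initiation, 1 SNORA63 row had 2364 reads in the LKB1 line and 1730 in the vector line (0.39). Its other SNORA63 row had 122 and 131 (-0.16), SNORA81 had 1211 and 1239 (-0.09) and SNORA4 517 and 540 (-0.12). RPL23 carried a like pair. Its SNORA21 row of 4032 reads had 2344 in the LKB1 line and 1688 in the vector line (0.42, adjusted p = 0.189), and its other SNORA21 row 64 and 65 (-0.08). In RPL27A SNORA3 had 1477 and 995 reads (0.51, adjusted p = 0.546) and SNORA45 387 and 359 (0.05). Rows of 1 name differed in sequence here, with 71.9% of aligned bases shared by the SNORA63 rows in EIF4A2 and 63.4% by the SNORA21 rows in RPL23. Differences within a host were not tested.

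The genes of the H/ACA particle's proteins were not called in the deposited edgeR table, and all 4 were below 0. By unadjusted p under 0.05 there was 1 of 4 in this list (NHP2), 0 of 7 assembly factors and 0 of 4 box C/D core proteins. NHP2 had 612 reads in the LKB1 line and 783 in the vector line (deposited log2 fold -0.41, adjusted p = 0.159). GAR1 was at -0.31, DKC1, the pseudouridine synthase, at -0.18 and NOP10 at -0.09. None of 7 assembly factors was called, with deposited log2 folds of -0.20 to 0.12 (PIH1D1 -0.20, RPAP3 -0.16, NAF1 0.12, NUFIP1 0.12). Box C/D core proteins gave the same count, 0 of 4, with FBL, the methyltransferase fibrillarin, at -0.22. Over all genes with at least 40 reads the median was -0.02.

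Among 17 Cajal body and telomerase genes with at least 40 reads 1 rose and none fell. Of all genes with as many reads, 5.77% were called higher and 6.86% lower. By unadjusted p under 0.05 there were 3 in this list, 2 of them higher. GEMIN8, a subunit of the SMN complex, had 81 reads in the LKB1 line and 31 in the vector line (deposited log2 fold 1.32, adjusted p = 0.00627). It lies on the X chromosome, and its 24 nearest protein-coding neighbours (200 reads or more each) had a median deposited log2 fold of 0.85. The part of this in its rise was not tested. The same neighbour median was 0.10, -0.01, 0.13 and -0.19 around the called members SNORA54, SNORA74B, SNORA72 and SNORA49. WRAP53, which encodes the protein that binds the CAB box, had 272 reads in the LKB1 line and 369 in the vector line (-0.50, adjusted p = 0.171). COIL, the gene of coilin, had 210 and 231 reads (-0.19). TERC, the H/ACA-tailed telomerase RNA, had 413 and 430 reads (-0.11, adjusted p = 1). Of 8 genes of 3′ end processing of small RNAs, TOE1, a deadenylase of Cajal bodies, fell, with 184 reads in the LKB1 line and 301 in the vector line (-0.77, adjusted p = 0.0235).

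Targets and neighbours of the pathway were also mostly outside the calls. Of 18 spliceosomal RNAs with at least 40 reads RNU4ATAC, an RNA of the minor spliceosome, rose, with 1744 reads in the LKB1 line and 935 in the vector line (deposited log2 fold 0.84, adjusted p = 0.00208). That is 5.56% of these 18, where 5.77% of all genes with as many reads were called higher. RNU6-28 was called on 26 reads in the LKB1 line and 5 in the vector line (2.27, adjusted p = 0.0237), and as a copy of U6 its reads are uncertain. Of 8 rows of small RNAs made by RNA polymerase III, 2 of which are RPPH1 with the same values, none was called (2 by unadjusted p under 0.05). RNY1 was the 1 row below 0, at -0.50, and 7 were above, with RN7SL1 at 0.43, RNY5 at 0.56 and VTRNA1-1 at 0.70. Of 12 host genes named SNHG or GAS5 none was called (0 by unadjusted p under 0.05), with SNHG16 at 0.28, SNHG10 at 0.29, SNHG11 at -0.45 and SNHG1 at 0.24. These deposited totals can hold the reads of the small RNAs inside. SCARNA13 made up 96.8% of the SNHG10 reads, and the remainder was 36 reads in the LKB1 line and 40 in the vector line (log2 ratio -0.21). Of 81 ribosomal protein genes none was called (6 by unadjusted p under 0.05), with a median of -0.02 and, among those with the smallest p, RPL8 at -0.40 (adjusted p = 0.0626), RPS28 at -0.36, RPS26 at -0.35, RPL30 at 0.33 and RPL37 at 0.28.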

How the data were processed

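RNA of 2 stable lines labelled MDA-MB-231 was compared, LKB1 and vector, with 2 libraries each. As given above, 1 of these 2 groups did not match MDA-MB-231 in the check of labels. Per the submitters' processing notes, CASAVA 1.8.2, TopHat2 2.0.6, edgeR 2.6.0 and hg19 were used, with no roles given, and the method of read counting is not given in the sources used here. The table holds, per the file headers, a fold (ratio), a log2 fold, a p-value and an FDR for each of 34675 genes, all computed by the authors. The FDR is called the adjusted p here. The adjusted p-values differ by at most 1.9e-06 from a Benjamini-Hochberg adjustment recomputed over all genes.

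Reads per line were recovered from the fold with priors of 0.254868 (LKB1) and 0.245132 (vector) reads. This resolved 28109 of 28242 genes with reads, and of 1397 check genes 1391, against 40 to 89 with altered priors. The recovery and a negative binomial test with an assumed variation between libraries were tested on simulated data. The simulated folds were formed with the same priors that the recovery uses, so they cannot show how the deposited folds were made. Python 3.11.15, numpy 2.4.6, scipy 1.17.1 and pandas 2.3.3 were used. GENCODE 29 gave sequences, with no coordinates carried between builds. In a host, small RNA rows inside it on its strand were subtracted from its total.

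Members and lists were chosen with earlier results of these data known. Named were STK11, called members, the 10 with most reads, the 5 largest rises and 5 largest falls from 40 reads, SCARNA rows from 40 reads, those around the threshold, their hosts, TERC, and called members of each list or up to 4 with the smallest p. Others (such as SNORA9, SNORA57 and members of shared hosts) were chosen after their values were seen. Some items that this rule names are not reported here.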

Additional observations from a re-analysis of the deposited data

How the results depend on the processing

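The count of 4 called members was 4 at an adjusted p under 0.1 and among members with at least 40 reads, 3 among names on 1 row and 6 with an assumed variation of 0.1, all higher in the LKB1 line. It was 1 at an adjusted p under 0.01 (SNORA54), 1 with a fold of at least 2 as well (SNORA72) and 2 among members with at least 200 reads (SNORA54 and SNORA49), each by construction a smaller set. With an assumed variation of 0.2 between libraries it was 0, where 2.67% of all genes were called, and with 0.4 it was also 0, where 0.81% were. At these the adjusted p of SNORA54 was 0.224 and 1, beside 7.8e-05 at 0.1. The variation at which this test gives the deposited p had a median of 0.116 over 11 members and 0.105 over 280 protein-coding genes. Such a value was found only for some rows, among the members nearly all with a small deposited p. These medians therefore describe a selected part and cannot give the spread between libraries of the other rows. SNORA3 (adjusted p = 0.0186) and SNORA20 (0.0222) were called only at 0.1. The median log2 fold of 0.16 was 0.15 to 0.18 under the other minimums of reads, centring on protein-coding genes and names on 1 row. Centred on box C/D RNAs it was -0.06, a sign fixed by construction, since this takes 0.23 from every gene. The share of members on the side of their host, 68.5%, was 67.3 to 70.4% for hosts on either strand and stricter minimums, and 52.1% with small RNA reads taken out (68.1% for the same members with deposited hosts). With small RNA reads taken out and at least 200 reads per member, the share was 49.3%. The cause was not tested. No paired analysis was possible because the table has no value per library, and for the same reason no library could be left out. Depth leaves 51 members with 1 to 39 reads and 27 with none.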
